A study of Mus musculus with 8 samples.

Results

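The Meg3-Rian-Mirg locus is an imprinted stretch of mouse chromosome 12 that gives rise to long noncoding RNAs, and it is described here through the RNA fragments crosslinked to Ptbp2 in embryonic cortex. Tags, the mapped fragments, were taken where their midpoint lay on the plus strand between 110775000 and 110990000 (mm9), with Meg3 from 110779000 to 110810000, Rian from 110842000 to 110900000 and Mirg from 110973000 to 110988000. Of 3098854 tags in all, 3547 (0.114%) met this rule, and 2506 of them (70.7%) lay in the 3 named members. Minus strand tags of the same range, 26 in all, served as the antisense control. The members were chosen by position with the tag numbers of the pooled list in view, so its levels, their order and its strand are given as a description and were not tested.

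The libraries came from 2 wild-type brains of the CD1 strain, collected on embryonic day 18.5, with 4 libraries each (brain 2 and brain 1, libraries 1 to 4). All 8 held RNA crosslinked to Ptbp2 in the cortex. In HITS-CLIP, ultraviolet light links a protein to RNA in contact with it, and the linked RNA is pulled down with an antibody and sequenced. Depth was 228424 to 340852 tags in the libraries of brain 2 and 458293 to 545387 in those of brain 1, and levels are given as CPM, the tags of a feature scaled to a common library size. No input RNA and no other antibody was analysed here, so a high tag number and an abundant transcript cannot be told apart, nor can fewer expressing cells and less RNA per cell. The libraries of a brain share 1 animal, and their spread is technical.

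Ptbp2 is a neuron-enriched RNA-binding protein that contacts pyrimidine-rich sequence and regulates splicing. Meg3, Rian and Mirg are transcribed in the same direction from the maternal chromosome within the Dlk1-Dio3 imprinted domain. Meg3 is a largely nuclear long noncoding RNA, Rian is a host of C/D box small nucleolar RNAs, and Mirg is a host of microRNAs. The protein-coding gene Rtl1 lies on the opposite strand between Meg3 and Rian and is expressed from the paternal chromosome.

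The deposited tags carry no gene names, and members were identified by position. The RefSeq gene table describes another assembly, GRCm38.p6, and was used only for names, lengths and neighbours. It lists all 3 members as long noncoding RNAs on chromosome 12, 30734, 57772 and 14478 nt long for Meg3, Rian and Mirg, against intervals of 31001, 58001 and 15001 nt in the rule. The RefSeq microRNA table of the same assembly places 54 plus strand hairpins from the start of Meg3 to the end of Mirg. Of these, 1 lies in Meg3, 13 lie between Meg3 and Rian, 3 in Rian, 27 between Rian and Mirg, and 10 in Mirg. The stretches between the members are therefore annotated sources of small RNAs too. The first mature microRNA by position on the plus strand of each stretch is shown as an example, 5′ to 3′ with its seed (bases 2 to 8) in capitals.
miR-770-5p, in Meg3: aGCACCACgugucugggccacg
miR-673-5p, between Meg3 and Rian: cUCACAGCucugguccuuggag
miR-341-5p, in Rian: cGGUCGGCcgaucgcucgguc
miR-882, between Rian and Mirg: aGGAGAGAguuagcgcauuagu
miR-453, in Mirg: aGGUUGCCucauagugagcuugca
These 5 seeds differ from one another. No tag was assigned to a microRNA, because the tags and the table are on different assemblies.

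Nearly all tags of the range lay on the plus strand and almost none on the opposite one. Of the 3573 tags of the range, 99.3% were on the plus strand (exact 95% interval 98.9 to 99.5%, counting error only). In single libraries this share lay between 98.5 and 100%. Across all chromosomes, which pool genes of both strands, the plus strand held 42.6%, so that share does not say how stranded a single locus is. Antisense tags came to 7.26 ± 6.42 CPM in brain 2 against 9.42 ± 5.34 CPM in brain 1 (SD, n = 4 libraries each). Of the 26 antisense tags, 13 lay opposite Rian, 2 opposite Meg3 and 0 opposite Mirg. Only 2 lay opposite the stretch between Meg3 and Rian, where Rtl1 is encoded. Few tags lay at the edges of the range on either side: the 20 kb before it held 1 plus strand tag, the first 5 kb inside it 1, the last 5 kb inside it 4 and the 20 kb after it 1.

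**Figure D1:**
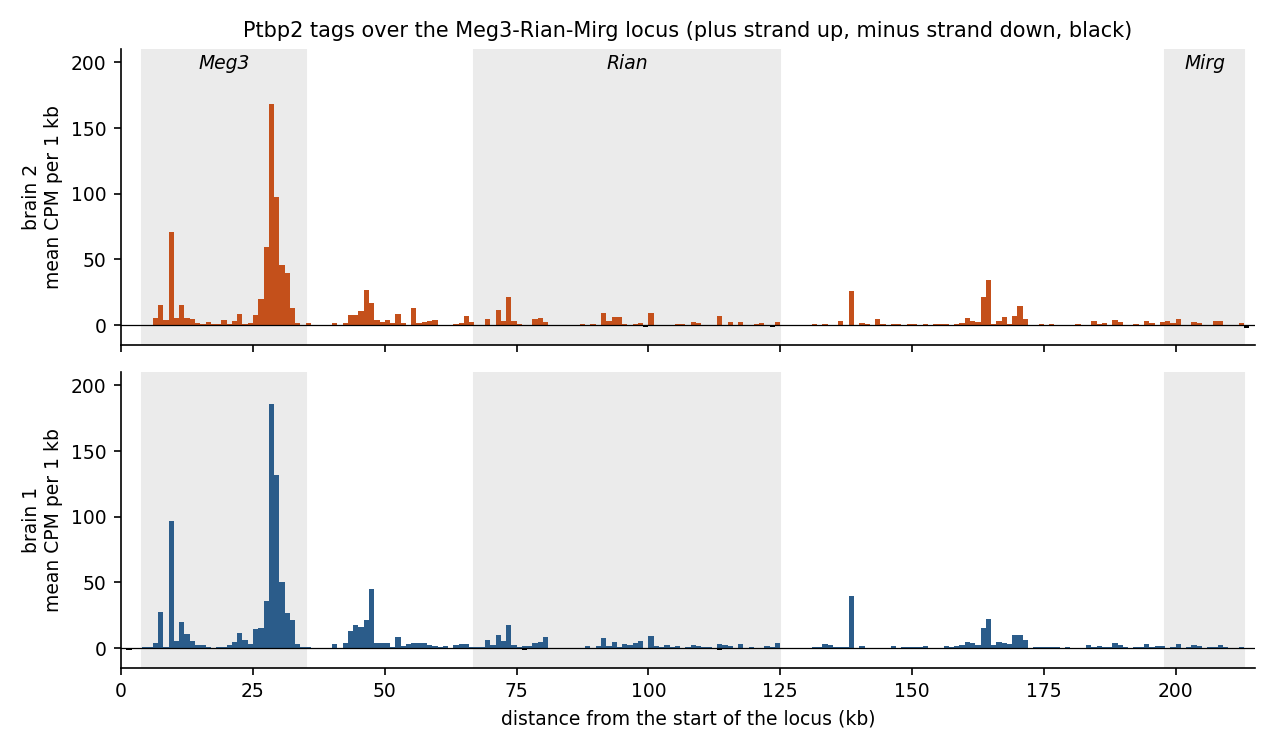
Mean CPM in bins of 1 kb along the locus, brain 2 above and brain 1 below, with plus strand bars up, minus strand bars down in black, and the members shaded. The tallest bars stand in a block towards the 3′ end of Meg3, with lower groups of bins in both stretches between the members.

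Chromosome 12 as a whole also held more plus than minus strand tags, and it still did, by a smaller margin, with the locus left out. Its plus strand share was 54.5% over the whole chromosome (exact 95% interval 54.2 to 54.8%) and 53.3% without the locus (interval 53.0 to 53.5%). Without the locus it averaged 52.0 ± 2.15% in brain 2 against 54.1 ± 0.97% in brain 1 (SD, n = 4). It stayed above the share of all chromosomes in each library, at 50.3% in the lowest.

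Meg3 carried most of the tags. It held 2038, which is 57.5% of the locus (exact 95% interval 55.8 to 59.1%). Its level was 549.7, 507, 637 and 722 CPM in libraries 1 to 4 of brain 2, against 743, 766, 646 and 615 CPM in those of brain 1. The ranges of the brains overlap, and library 2 of brain 2 was the lowest of the 8. Per length, Meg3 averaged 20.9 CPM per kb over the 8 libraries and lay between 16.4 and 24.7.

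Rian, the longest of the members, held 414 tags. Its level was 86.0, 143, 99.8 and 149 CPM in libraries 1 to 4 of brain 2, against 150, 118, 161 and 141 CPM in those of brain 1. Libraries 1 and 3 of brain 2 were the lowest and the brains overlap. Its density was 2.26 CPM per kb on average, and Meg3 exceeded it in each of the 8 libraries, by 6.65 to 12.2 times per length.

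Mirg, the microRNA host, was the emptiest member with 54 tags. It held 3, 3, 12 and 6 tags in libraries 1 to 4 of brain 2, against 6, 10, 7 and 7 tags in those of brain 1. Library 3 of brain 2 was the fullest and its libraries 1 and 2 the emptiest. The density was 1.21 CPM per kb, and Rian exceeded it in 7 of 8 libraries, with the ratio of Rian to Mirg running from 0.733 to 4.05. Counts this small leave the order of Rian and Mirg uncertain in a single library.

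The stretches between the members were not empty, and together held 1041 tags (29.3% of the locus). Between Meg3 and Rian, where the microRNA-bearing transcript opposite Rtl1 is known, there were 489 tags. This stretch held 131, 88.1, 132 and 179 CPM in libraries 1 to 4 of brain 2, against 180, 203, 144 and 175 CPM in those of brain 1. Its density of 4.81 CPM per kb lay above that of Rian in each of the 8 libraries. Between Rian and Mirg there were 552 tags, at 161, 158, 182 and 193 CPM in libraries 1 to 4 of brain 2, against 198, 209, 157 and 159.7 CPM in those of brain 1. This density, 2.43 CPM per kb, was above Mirg in 8 of 8 libraries but above Rian in only 5 of 8, so these neighbours in the order do not differ beyond their spread.

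**Figure D2:**
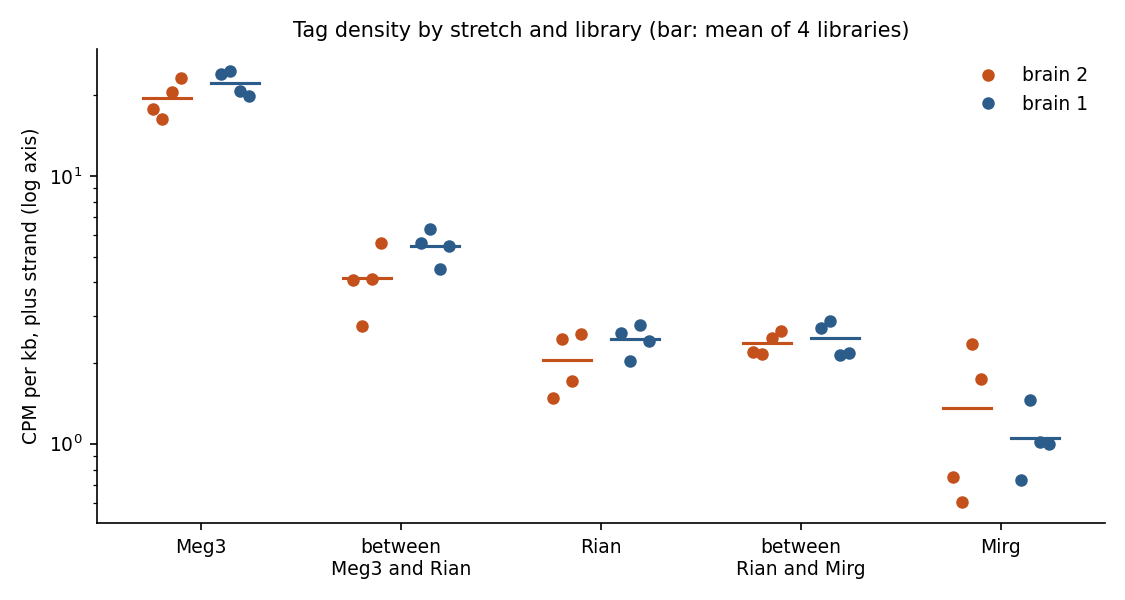
Plus strand CPM per kb (log axis) in each stretch, 1 point per library and a bar at the mean of 4 libraries, brain 2 left of brain 1. Meg3 stands above all other stretches in each library, while Rian and the stretch between Rian and Mirg overlap.

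Within Meg3 the tags stood mostly in the 5′ and 3′ parts, short of the very ends, and were sparse in the middle. With the interval cut into 3 equal parts, the 3′ part held 71.9% of the tags, the 5′ part 23.5% and the middle part 4.56%. In single libraries the 3′ part held between 67.3 and 77.6%. A block of 5 kb from 110802000 to 110806999, chosen after its values were seen, held 1306 tags, at 411 ± 107 CPM in brain 2 against 430 ± 66.7 CPM in brain 1 (SD, n = 4). Near the 5′ end, the bin from 110784000 to 110784999 held 269 tags, at 71.2 ± 8.26 CPM in brain 2 against 96.9 ± 13.3 CPM in brain 1 (SD, n = 4). More than 50% of the tags of Meg3 fell in 3 of its 31 bins of 1 kb. The fullest, from 110803000 to 110803999, held 554 tags (27.2%), at 168 ± 56.2 CPM in brain 2 against 186 ± 32.9 CPM in brain 1. No exons were assigned, since the gene models at hand are not of the tags' assembly.

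**Figure D3:**
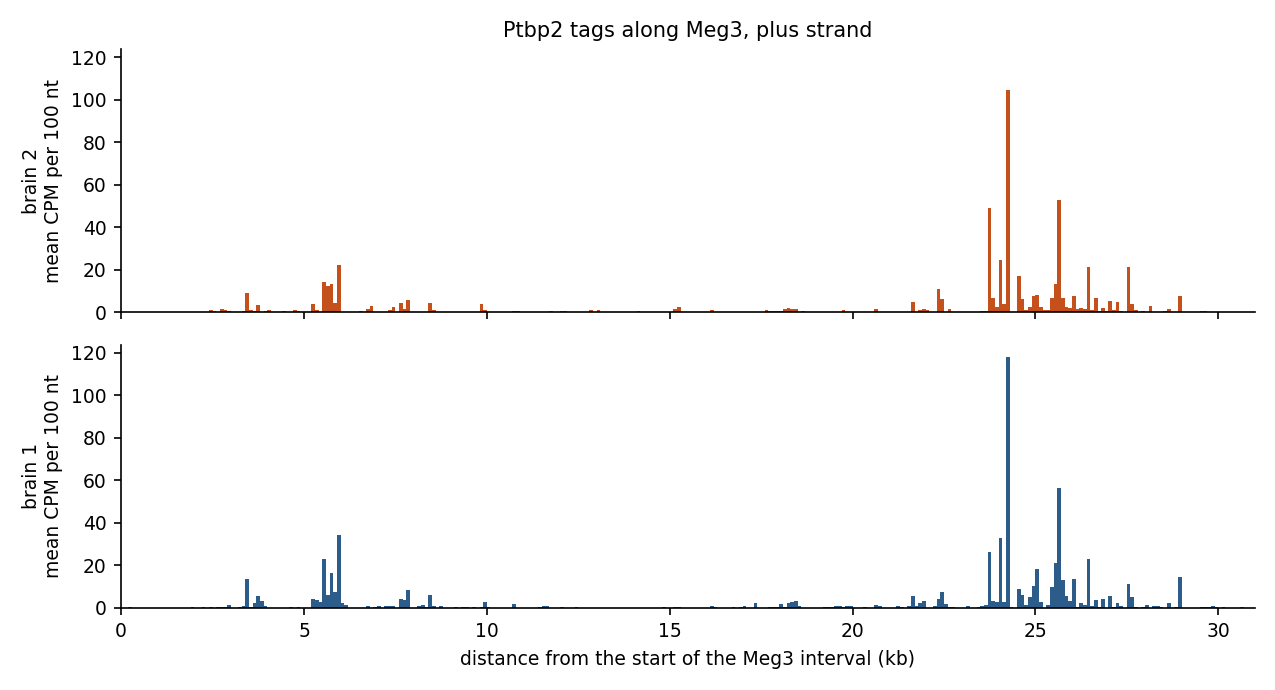
Mean CPM in bins of 100 nt along the Meg3 interval, brain 2 above and brain 1 below. Both brains show a narrow group of bins about 6 kb from the start and a broader one from about 22 to 28 kb, with little between them.

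In Rian the tags thinned towards the 3′ end and no single place dominated. The 5′ part of 3 equal parts held 48.3% of them, the middle part 33.8% and the 3′ part 17.9%. It took 8 of 58 bins to reach 50%, and 8 bins were empty. The small nucleolar RNAs of Rian lie in near-identical tandem copies, so tags there could be split between copies or lost, depending on how multiply mapping reads were handled, and levels within Rian are uncertain to that extent. The fullest bin, from 110848000 to 110848999, held 60 tags, at 21.4 ± 10.3 CPM in brain 2 against 17.96 ± 5.31 CPM in brain 1 (SD, n = 4). In Mirg 3 of 15 bins were empty, and the fullest, from 110975000 to 110975999, held 12 tags, 6 from each brain.

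Overlapping tags of all libraries were joined into clusters, whose height is the largest number of tags over one base. Of 22803 clusters at least 10 high, 52 lay on the plus strand of the locus and 0 on its minus strand. Meg3 had 27 of them, the stretch between Meg3 and Rian 11, Rian 6, the stretch between Rian and Mirg 8, and Mirg 0. Clusters held 78.2% of the tags of Meg3 and 31.9% of those of Rian, against 15.7% of all tags. The clusters of Meg3 were wide, with a median of 91 nt and a maximum of 285 nt, beside 53.5 nt in Rian and 42 nt over all clusters. They were also taller, with a median height of 26, beside 20.5 in Rian and 14 over all clusters. Since any overlap joins tags, width and the share of tags in clusters can grow with tag density, and its part was not tested.

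The tallest cluster of the locus lay in the 3′ block of Meg3, from 110803185 to 110803333, with a height of 301, which ranks 28 among all clusters. It held 14, 32, 41 and 34 tags in libraries 1 to 4 of brain 2, against 75, 61, 53 and 42 tags in those of brain 1. Scaled to depth this is 105 ± 40.8 CPM in brain 2 against 119 ± 21.8 CPM in brain 1 (SD, n = 4), and the levels overlap. Its tags took 67 distinct positions, and the commonest of them held 18.5%, so it was no single repeated fragment.

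The next in Meg3 had a height of 165 and lay from 110804620 to 110804732. It was followed by one of height 96 from 110802698 to 110802857, one of height 84 from 110784823 to 110784931, one of height 83 from 110802968 to 110803045 and one of height 61 from 110804428 to 110804532. The second held 58.4 ± 16.5 CPM in brain 2 against 64.9 ± 5.65 CPM in brain 1 (SD, n = 4). The third was the only one of these 6 with the higher mean in brain 2, 55.7 ± 30.9 CPM, against 29.4 ± 18.3 CPM in brain 1, and its libraries overlap. In the fourth, near the 5′ end, 65.0% of the 103 tags shared one position. All 6 of these clusters held tags of all 8 libraries.

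The 6 clusters of Rian were lower. The tallest, from 110848664 to 110848745, had a height of 36 and held 3, 7, 3 and 4 tags in libraries 1 to 4 of brain 2, against 8, 6, 2 and 5 tags in those of brain 1. Scaled to depth it held 14.7 ± 5.71 CPM in brain 2 against 10.7 ± 4.54 CPM in brain 1 (SD, n = 4), with overlapping libraries. Those from 110866801 to 110866844 and from 110875787 to 110875828 each reached a height of 24. They differ in make-up: the commonest position held 41.7% of the tags in the first and 83.3% in the second. The other 3, which start at 110846821, 110855230 and 110844316, had heights of 17, 14 and 13 and were each absent from some libraries.

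Outside the members, the tallest cluster lay between Rian and Mirg, from 110913149 to 110913240, and was picked after its values were seen. Its height of 101 ranks 203 among all clusters, above every cluster of Rian. It held 6, 9, 8 and 5 tags in libraries 1 to 4 of brain 2, against 15, 26, 14 and 21 tags in those of brain 1. At 23.8 ± 2.46 CPM in brain 2 against 39.9 ± 13.5 CPM in brain 1 (SD, n = 4) the libraries of the brains did not overlap, though by little, since the highest of brain 2 was 27.3 and the lowest of brain 1 27.5 CPM. In this cluster 61.5% of the tags shared one position. Also between Rian and Mirg, the cluster from 110939429 to 110939520 had a height of 55, and that from 110938757 to 110938799 a height of 34. Between Meg3 and Rian the tallest, from 110822613 to 110822651, reached 33.

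Each of the 52 clusters held tags of both brains, but how often this is so among all clusters of this height was not counted. Of the 52, 22 held tags of all 8 libraries, a larger share than the 23.8% among all clusters of this height. The median height was 18.5 in the locus against 14 over all these clusters, and its part in this was not tested. In 4 of the 52 the libraries of the brains did not overlap, which was so in 4.28% of all clusters of this height. These were the one just named from 110913149, one from 110938900 to 110938950, and 2 in Meg3, from 110804003 to 110804112 and from 110804976 to 110805050. All 4 were lower in brain 2 by CPM of total tags, a scaling under which the median log2 change of all tested windows was -0.21. The one from 110938900 held only 12 tags. They were 0, 1, 0 and 0 in libraries 1 to 4 of brain 2, against 2, 2, 4 and 3 in those of brain 1. Differences of single clusters were not tested.

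**Figure D4:**
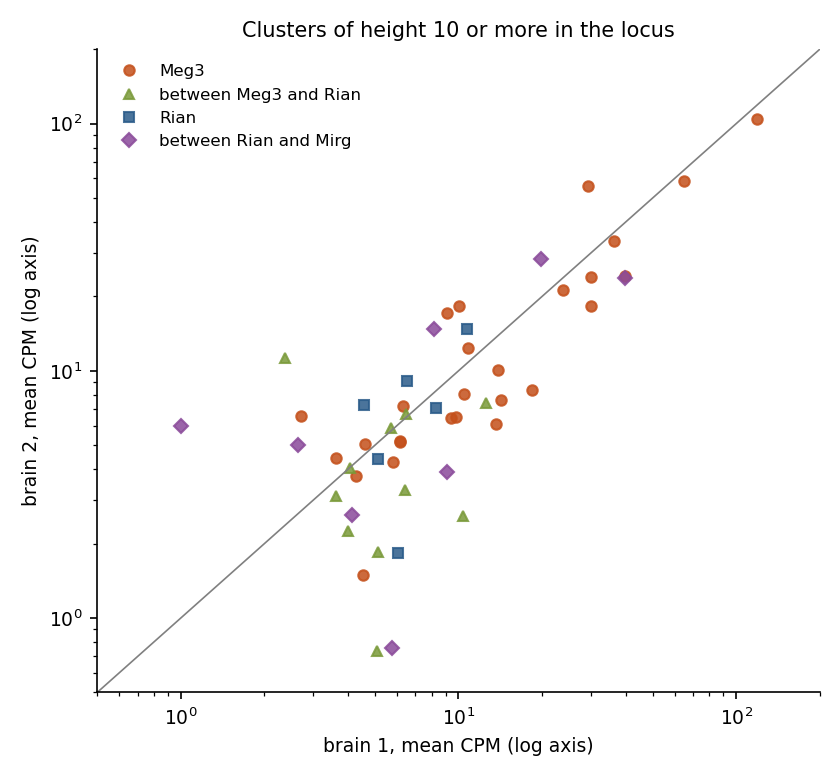
Mean CPM in brain 2 (vertical) against brain 1 (horizontal) for the 52 clusters of the locus, both axes logarithmic, with a line of equal values. The 2 tallest clusters, both in Meg3, lie near the line, and the spread around it is wider for clusters of few tags.

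Sites recurred between the brains. The tags of each brain were clustered separately as well, at a height of 5 or more. Of 46 such clusters of brain 2 in the locus, 39 (84.8%, exact 95% interval 71.1 to 93.7%) overlapped one of brain 1, against 66.7% of 21017 in the rest of the series. In the other direction 40 of 79 clusters of brain 1 (50.6%) overlapped one of brain 2, against 32.9% elsewhere. Median heights were 8 and 6 for brain 2 inside and outside the locus, and the part of this difference in the overlap was not tested. By stretch, 26 of 29 clusters of brain 2 in Meg3 and 5 of 6 in Rian overlapped one of brain 1.

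The 5′ ends of tags recurred too. Of 633 distinct 5′ ends of brain 2 in the locus, 231 (36.5% of brain 2 and 20.6% of brain 1) were also 5′ ends in brain 1, beside 75.5 at a shift of 1 nt, a ratio of 3.06. Meg3 shared 140 of 315 ends (44.4%) and Rian 25 of 81 (30.9%), while Mirg shared 0 of 19. In the rest of the series 18.9% were shared, 170890 ends beside 35548 at a shift of 1 nt, so that the ratio to the shifted number was higher there, at 4.81. In Meg3 this ratio was 2.55 and in Rian 4.55. The tag density of a stretch moves with these shares, and its part in them was not tested. Along the locus, the CPM of bins of 1 kb in brain 2 and brain 1 had a Pearson r of 0.98 (Spearman rho 0.91) over 31 bins of Meg3, 0.87 (rho 0.63) over 58 bins of Rian and 0.66 (rho 0.59) over 15 bins of Mirg, with the bins of a brain sharing its libraries.

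Repeated positions, rows of one library with the same start, end and strand, made up 32.3% of the tags of Meg3, 15.7% of those of Rian and 13.0% of those of Mirg, against 8.09 to 18.6% in whole libraries. Counting them once per library left 2569 plus strand tags in the locus and 46 clusters of height 10 or more. Of these, 25 lay in Meg3 and 6 in Rian.

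The brains, which are the study's biological replicates, were then compared for the level of each member. For neither Meg3 nor Rian was the difference larger than the spread of libraries. In a limma voom test over 3755 features, 10-kb windows of both strands with each member as 1 feature, 1.25% of features passed an adjusted p of 0.05, and 0 of the members did. Scaled by trimmed mean of log ratios, Meg3 held 641 ± 35.8 CPM in brain 2 against 646 ± 35.5 CPM in brain 1 (SD, n = 4). Its log2 change, brain 2 over brain 1, was -0.01 ± 0.09 (SE, limma adjusted p = 0.989), with a 95% interval from -0.20 to 0.18. Rian held 127 ± 32.9 scaled CPM in brain 2 against 134 ± 20.6 in brain 1 (SD, n = 4), and its log2 change was -0.08 ± 0.17 (SE, limma adjusted p = 0.921) with an interval from -0.43 to 0.27. Mirg had too few tags to enter this test; without the count filter its log2 change was 0.37 ± 0.41 (SE, limma adjusted p = 0.863).

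As a share of all tags of the library, without this scaling, the locus held 1050 ± 166 CPM in brain 2 against 1207 ± 109 CPM in brain 1 (SD, n = 4, two-sided exact permutation p = 0.114, adjusted 0.429 over 5 values). Meg3 held 604 ± 95.5 CPM in brain 2 against 692 ± 73.0 CPM in brain 1 (exact permutation p = 0.2, adjusted 0.429). Rian held 119 ± 31.2 CPM in brain 2 against 142 ± 18.4 CPM in brain 1 (exact permutation p = 0.257, adjusted 0.429), and Mirg 20.5 ± 12.5 CPM in brain 2 against 15.7 ± 4.49 CPM in brain 1 (exact permutation p = 0.543, adjusted 0.629). With 4 against 4 libraries no p below 0.0286 is possible. The level of the locus split by the letter of the title. In brain 2 it was 939 and 905 CPM for letter a, against 1086 and 1270 CPM for letter b. In brain 1 it was 1282 and 1318 CPM for letter a, against 1122 and 1105 CPM for letter b. The exact tests leave the letter out. Scaling moved the levels of all features, since the median log2 change was 0.01 with the trimmed mean and -0.21 with total tags.

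The division of tags within the locus was compared as well, and none of its 6 values passed. Meg3 took 57.5 ± 1.28% of the locus tags in brain 2 against 57.3 ± 1.12% in brain 1 (SD, n = 4, exact permutation p = 0.83, adjusted 1 over 6 values). Rian took 11.5 ± 3.11% in brain 2 against 11.9 ± 2.27% in brain 1 (exact permutation p = 0.886, adjusted 1). The share of Rian tags lying in clusters was 37.0 ± 3.13% in brain 2 against 29.2 ± 6.73% in brain 1, which did not pass (exact permutation p = 0.0571, adjusted 0.343). This difference of 7.81 percentage points was 4.83 without library 3 of brain 1, and without library 3 of brain 2 or library 1 of brain 1 the brains did not overlap. For Meg3 this share was 79.8 ± 3.44% in brain 2 against 77.5 ± 2.69% in brain 1 (exact permutation p = 0.343, adjusted 0.8).

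By 10-kb window, 10 windows of the locus entered the test among 3757 on the plain grid, of which 1.25% passed, and 0 of the 10 passed with limma. No window of Mirg entered. Of Rian only the window from 110840001 to 110850000 did, which begins before Rian. An unadjusted p under 0.05 was seen in 2 of the 10, and in 400 of all windows. The window from 110930001 to 110940000, between Rian and Mirg, had a log2 change of 0.54 ± 0.23 (SE, limma adjusted p = 0.324). With a library left out this ran from 0.30, without library 3 of brain 2, to 0.74. That from 110820001 to 110830000, between Meg3 and Rian, had a log2 change of -0.39 ± 0.19 (SE, limma adjusted p = 0.445). With a library left out this ran from -0.51 to -0.20, the latter without library 2 of brain 2. In 1 window, from 110780001 to 110790000 in Meg3, the scaled levels of the brains did not overlap, at 137 ± 11.8 CPM in brain 2 against 163 ± 9.04 CPM in brain 1 (SD, n = 4), and this was the case in 6.76% of all windows tested. Its log2 change was -0.25, against -0.04 with repeated positions counted once per library and -0.45 with total scaling, and it did not pass with limma in any of these (adjusted p = 0.556, 0.969 and 0.24). The window from 110800001 to 110810000, which holds the 3′ block of Meg3 and ranks 5 by tags among all windows, had a log2 change of 0.08 ± 0.10 (SE, limma adjusted p = 0.867). With a library left out it ran from 0.016 to 0.13, with repeated positions counted once it was 0.22, and with total scaling it was -0.12. Without the count filter 18 windows of the locus were tested and 0 passed. The largest change among them was in Rian, from 110870001 to 110880000, at -1.04 ± 0.42 (SE, limma adjusted p = 0.69).

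**Figure D5:**
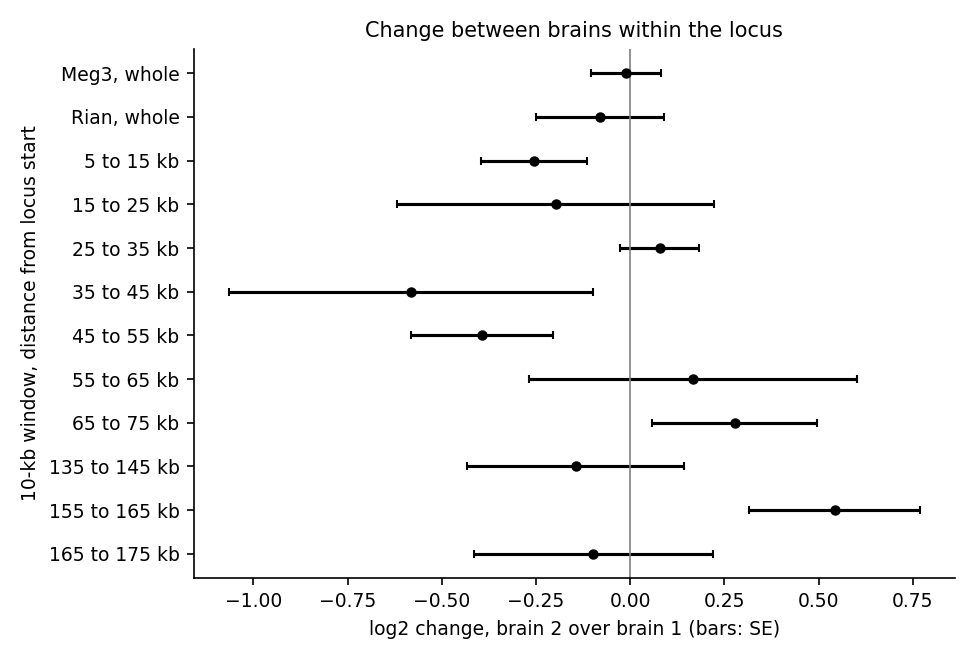
Log2 change of brain 2 over brain 1 from limma voom for Meg3 and Rian as whole intervals and for the 10 tested windows of 10 kb, named by distance from the start of the locus, with bars of 1 SE. Meg3 and the window that holds its 3′ block lie close to 0, and wide bars belong to windows with few tags.

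Over the 8 libraries, the scaled level of the locus was most like that of 3 windows elsewhere. The closest was at 7010001 to 7020000 of chromosome 16, plus strand (Pearson r = 0.93). It was followed by 42280001 to 42290000 of chromosome 6 (r = 0.90) and 69080001 to 69090000 of chromosome 7 (r = 0.87), both minus strand. They are the closest of 3747 windows, each with 8 points that share libraries and depth. Whether such r values exceed what a search this wide gives among unrelated windows was not tested.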

How the data were processed

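The authors deposited a single table for the 8 HITS-CLIP libraries in which each row is a mapped tag with its position, strand and name. The start of the name gave the library by its title, and 0 tags lacked one. The deposited score column held 0 throughout and was not used. Per the submitters' processing notes, Bowtie (no version) and the builds mm8 and mm9 were used. Tags on chromosome 1 reach position 197194446, and coordinates are given as mm9, counted from 1. The handling of repeated and of multiply mapping reads is not stated there.

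Tags were counted by midpoint. Clusters join tags that overlap by 1 nt or more on one strand. Because the file is a tag list, counts per feature were made here and tested with limma 3.58.1 (voom, R 4.3.3). Features needed the CPM of 10 tags at median depth in 4 libraries and 15 tags in all. Scaling used a trimmed mean of log ratios, and p-values adjusted by Benjamini and Hochberg over the whole table. The test was run first on simulated data. Single values were compared with two-sided exact permutation tests in SciPy 1.17.1. Intervals are Clopper-Pearson and cover counting error only. The rule for named features was the 3 members, up to 6 tallest clusters and the fullest 1-kb bin of each, windows past the threshold, and the 3 most like windows. Members and lists were chosen with earlier results of these data known. Same-numbered libraries of the brains did not deviate together (r from -0.03 to -0.01 over windows), and the main test used no pairing. Counting noise in the windows could hide a shared preparation, so this does not exclude pairing by number. Alternatives were another scaling, no filter, a replicate block, the title letter as a term, each library left out, repeated positions counted once, wider member bounds, other cluster heights and a 10-nt overlap.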

Additional observations from a re-analysis of the deposited data

Results flagged for a closer look

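In 66 sets of 4 libraries of one brain, covering the levels, shares and named clusters of the locus, 2 had a library far from the other 3, and chance flags about 1 in 20 such sets. Library 3 of brain 1 held 17.4 CPM of antisense tags, which is 8 tags, against 6.39 to 7.33 CPM in the other libraries of brain 1. Library 3 of brain 2 had 32.4% of its Rian tags in clusters, against 38.2 to 39.1% in the other libraries of brain 2.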

How the results depend on the processing

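No locus window and no member passed with limma in any alternative, the lowest adjusted p being 0.155. The exact tests say nothing about stability, since 1 value without overlap could not pass after adjustment. With the numbers as a replicate block the log2 changes were -0.01 for Meg3 and -0.07 for Rian. With repeated positions counted once per library Meg3 turned to a log2 change of 0.13 (limma adjusted p = 0.657); scaling by total tags gave -0.21 for Meg3 and -0.28 for Rian. Leaving out each library in turn gave log2 changes from -0.057 to 0.0092 for Meg3 and from -0.24 to 0.012 for Rian. The differences of brain 2 minus brain 1 then ran from -0.21 to 8.49 CPM for Mirg, below 0 only without library 3 of brain 2, and from -4.12 to 0.50 CPM for the antisense strand. For shares of locus tags they ran from -0.33 to 0.71 percentage points for Meg3 and from -1.91 to 0.33 for Rian, and for shares of tags in clusters from 0.64 to 3.20 for Meg3 and from 4.83 to 10.3 for Rian. With repeated positions counted once, the share in Meg3 was 55.6 ± 1.03% in brain 2 against 52.7 ± 0.58% in brain 1 (SD, n = 4), without overlap (exact permutation p = 0.0286, the smallest possible, adjusted 0.171). Among all windows, 47 of 3757 passed, against 8 of 3757 with total scaling and 19 of 34816 without the count filter. With repeated positions counted once 14 of 2346 passed. With a library left out 19 to 44 passed. Among these were 19 of 2376 without library 1 of brain 1 and 44 of 2427 without library 4 of brain 1. Without library 4 of brain 2 it was 30 of 4340. The numbers tested differ, so the counts alone do not rank these settings. At heights of 5 and 20 the locus held 109 and 24 clusters, Meg3 52 and 16, and Rian 20 and 3. The cause of these shifts was not tested, apart from the height itself. Windows turned in sign as follows. That from 110800001 had -0.12 with total scaling and -0.061 without the count filter. That from 110940001 had 0.010 with the replicate block and -0.45 to 0.34 with a library left out, and that from 110910001 had -0.35 to 0.11 with a library left out.

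Depth limits Mirg most, with 3 to 12 tags per library.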
